A study of Homo sapiens with 6 samples.

Results

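The fibrinogen genes FGA, FGB and FGG and 7 other genes of secreted proteins typical of liver (ALB, TF, SERPINA1, APOH, FGL1, AFP and TTR) were followed, 10 of 18417 genes measured. They were chosen by name with measured differences between these same arrays already known, and each was read on the probe set that the platform's annotation gives to that gene alone. The differences between groups are therefore given as descriptions, with no test. Each of the 10 genes had 1 such probe set.

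RNA came from A549, a human lung adenocarcinoma cell line, on Affymetrix arrays. The control group (3 arrays) came from the stable A549 line called C and carries the genotype label control. The other group (3 arrays) came from the stable line called P1 and is labelled H2AX knockdown, H2AX being the histone variant that is phosphorylated around DNA double-strand breaks. Cells of both groups were starved of serum overnight and then exposed for 48 h to VP-16 (etoposide), which breaks DNA by holding topoisomerase II on it, so no untreated cells enter any comparison. The design text calls the arrays of a group independent experiments. How the knockdown was made, and whether each stable line is 1 clone, is not given in the sources used here, so the spread between arrays is that between experiments and not between lines.

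Fibrinogen is the soluble plasma protein that thrombin turns into the fibrin of a blood clot. It is built from pairs of 3 chains, Aα, Bβ and γ, whose genes FGA, FGB and FGG lie side by side and are mainly used by hepatocytes, where interleukin-6, through gp130 and STAT3, together with glucocorticoids raises them in the acute-phase response. Lung epithelial cells, A549 among them, can also make fibrinogen. Albumin, transferrin, alpha-1-antitrypsin, beta-2-glycoprotein I, transthyretin and, in the fetus, alpha-fetoprotein are other plasma proteins that hepatocytes secrete.

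The upstream sequences of the 3 chain genes are shown because these neighbours gave different values on the arrays. Each is the 250 bases before an annotated transcript start in RefSeq (build GRCh38.p14), read 5′ to 3′ on the gene's own strand. Capitals mark matches, on either strand, to 6 motifs of liver and acute-phase promoters: the HNF1 half-site GTTAAT, the C/EBP motif TTGCNNAA, the STAT motif TTCNNNGAA, the type II interleukin-6 motif CTGGGAA, the FOXA motif TGTTTNC and the TATA motif TATAAA. No matches overlapped one another in the windows of the 10 genes. FGA is at chr4:154590743-154590992 on the minus strand, FGB at chr4:154562730-154562979 on the plus strand and FGG at chr4:154612657-154612906 on the minus strand.
FGA: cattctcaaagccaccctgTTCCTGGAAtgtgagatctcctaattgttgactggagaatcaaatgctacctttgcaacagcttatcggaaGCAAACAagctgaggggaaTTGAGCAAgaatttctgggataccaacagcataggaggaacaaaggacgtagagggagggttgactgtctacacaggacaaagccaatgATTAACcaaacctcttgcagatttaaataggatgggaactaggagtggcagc
FGB: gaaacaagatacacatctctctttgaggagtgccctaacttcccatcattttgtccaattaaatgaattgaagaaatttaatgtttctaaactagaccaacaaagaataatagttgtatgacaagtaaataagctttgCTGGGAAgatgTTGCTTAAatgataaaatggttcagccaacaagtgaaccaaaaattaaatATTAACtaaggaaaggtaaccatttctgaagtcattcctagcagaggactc
FGG: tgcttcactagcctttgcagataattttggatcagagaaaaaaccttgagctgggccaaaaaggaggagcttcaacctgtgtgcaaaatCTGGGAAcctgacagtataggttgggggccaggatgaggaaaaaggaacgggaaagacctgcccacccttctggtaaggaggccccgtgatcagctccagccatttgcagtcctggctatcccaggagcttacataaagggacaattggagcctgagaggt

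The windows of FGA and FGB had an HNF1 half-site at nearly the same place. It lay at bases 52 to 47 before the start of FGA and at bases 51 to 46 before the start of FGB, or at bases 82 to 77 before the later of 2 annotated FGB starts. FGA also had a match to C/EBP at bases 141 to 134, to FOXA at bases 160 to 154 and to STAT at bases 231 to 223. FGB had a C/EBP match at bases 101 to 94 and the type II interleukin-6 motif at bases 112 to 106. The FGG window had 1 match, to the type II interleukin-6 motif, at bases 161 to 155. These letters are a description of the windows, not sites known to be bound.

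Windows were in the table for 8 of the 10 genes (11 windows, all genes but FGL1 and TTR). The HNF1 half-site was in a window of 6 of the 8 genes (FGA, FGB, ALB, SERPINA1, APOH and AFP), against 6.23% of all 35116 windows of this length. The C/EBP motif was in windows of 5 of them (FGA, FGB, ALB, TF and AFP), against 9.05% of all windows. The FOXA motif was in windows of FGA, ALB and SERPINA1 (15.5% of all windows), the type II interleukin-6 motif in those of FGB and FGG (9.15%), the STAT motif in that of FGA (6.57%) and the TATA motif in that of AFP (10.7%). A gene with several windows had more chances of a match than 1 window. The half-site of FGA and FGB lies on the minus strand of the gene, while ALB, SERPINA1, AFP and APOH had one on the plus strand, APOH besides 1 on the minus strand. ALB is shown as an example of the plus-strand orientation, with the half-site at bases 61 to 56 before its start, at chr4:73404037-73404286 on the plus strand.
ALB: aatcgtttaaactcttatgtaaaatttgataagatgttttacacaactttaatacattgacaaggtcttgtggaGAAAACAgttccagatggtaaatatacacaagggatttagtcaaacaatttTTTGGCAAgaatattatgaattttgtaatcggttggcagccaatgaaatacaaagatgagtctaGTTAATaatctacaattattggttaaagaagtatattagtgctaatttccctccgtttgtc

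The arrays differed in ways that touch every value below. The H2AX probe set itself read 5.21 ± 0.09 (log2 signal, SD, n = 3) in control and 5.31 ± 0.16 in the arrays labelled knockdown, a difference of 0.10 whose 95% interval ran from −0.25 to 0.45 (limma, adjusted p = 0.823). The labelled knockdown was therefore not seen in the targeted gene's signal, and the group is called knockdown-labelled throughout. Of the 6 arrays, the first of the knockdown-labelled group stood apart. Its SD over all probe sets was the smallest at 1.60 and that of control replicate 1 the largest at 1.86. Those 2 arrays lay at opposite ends of a component that held 49.2% of the variance over genes. Genes were split by mean signal into 5 equal bins, and the dimmest bin had a median log2 difference of 0.15 and the brightest one of −0.25. Dim genes thus tended to read higher and bright genes lower in the knockdown-labelled arrays, and the part of this shift in any difference below was not tested. The 14 measured markers of lung epithelium had mean log2 signals of 2.50 (EPCAM) to 9.80 (KRT8), and 6 of them were below the median of all genes. Among the keratins KRT7 and KRT18 read 8.41 and 8.56 but KRT19 4.39, and among the alveolar genes LPCAT1, ABCA3 and SFTPD read 5.68, 4.71 and 4.40 but SFTPC, NKX2-1 and SFTPB 3.22, 3.09 and 2.59. The number of arrays limits the precision, and in bulk RNA more cells using a gene and more RNA per cell cannot be told apart.

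The fibrinogen chains did not read alike. FGB and FGA read higher on every knockdown-labelled array than on any control array, by 1.89-fold and 1.51-fold on the means, while FGG was not higher. Among the 7 other genes FGL1 was the one whose groups did not overlap. ALB, TF, APOH and AFP, with mean differences of 0.02 to 0.12 on the log2 scale, were all below the median of genes as dim as they are.

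FGB encodes the Bβ chain, whose making is held to limit the assembly of fibrinogen. Its log2 signal (probe set 8097910, Entrez gene 2244) was 4.05, 3.84 and 3.98 in control replicates 1, 2 and 3 and 4.72, 5.08 and 4.83 in knockdown-labelled replicates 1, 2 and 3. The 3 knockdown-labelled arrays lay together above the controls, with a wide gap between the groups. The means were 3.95 ± 0.11 and 4.87 ± 0.19 (SD, n = 3 each), a difference of 0.92 ± 0.165 (SE) on the log2 scale. Ordered by the difference, FGB was number 8 from the highest of 18417 genes and number 1 of the 16903 that RefSeq lists as protein-coding. Over 14 other settings the difference was 0.82 to 1.0 and the place among all genes tested ran from 4 to 57, the last without knockdown-labelled replicate 2. The replicate block, the variance trend, the signal filter and the averaging of probe sets could not change the difference, so they are no check of it. The groups stayed apart after quantile normalization, after cyclic loess and after subtraction of array medians. The rest of the 12 settings that count overlap keep the same values or drop an array, so they could not bring overlap. Without knockdown-labelled replicate 1, the array that stood apart, the difference was 1.0.

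FGA encodes the Aα chain, from which thrombin cuts fibrinopeptide A. Its signal (probe set 8103311, Entrez gene 2243) was 5.42, 4.97 and 5.24 in the controls and 5.53, 5.81 and 6.08 in the knockdown-labelled arrays. The groups did not overlap, though the lowest knockdown-labelled array and the highest control, both replicate 1, were close. The means were 5.21 ± 0.23 and 5.80 ± 0.27 (SD, n = 3 each), and the difference was 0.60 ± 0.188 (SE). FGA was in the brightest bin of genes, where the median difference was −0.25 and 1.17% of genes were higher with no overlap. FGB was in the next bin, with a median of −0.10 and 2.72% of genes higher with no overlap. Both genes were chosen with their differences known, so nothing is read from these shares. The difference of FGA was 0.46 to 0.80 over the 14 other settings, and 0.73 without knockdown-labelled replicate 1. The settings that could not change the difference of FGB could not change that of FGA. After subtraction of each array's median its groups overlapped, while after quantile normalization and cyclic loess they did not. The remaining settings keep the same values or drop an array, so they could not bring overlap.

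FGG encodes the γ chain, which carries sites for platelet binding and for cross-linking. Its signal (probe set 8103326, Entrez gene 2266) was 3.88, 3.17 and 3.06 in the controls and 2.86, 3.06 and 3.49 in the knockdown-labelled arrays. Control replicate 1 was the highest of all 6 arrays, knockdown-labelled replicate 1 the lowest, and the groups overlapped. The means were 3.37 ± 0.45 and 3.14 ± 0.33 (SD, n = 3 each), a difference of −0.23 ± 0.231 (SE), about as large as its error. Without control replicate 1 it was 0.02, and with array weights it was −0.0032. In the bin of FGG the median difference was 0.07.

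**Figure D1:**
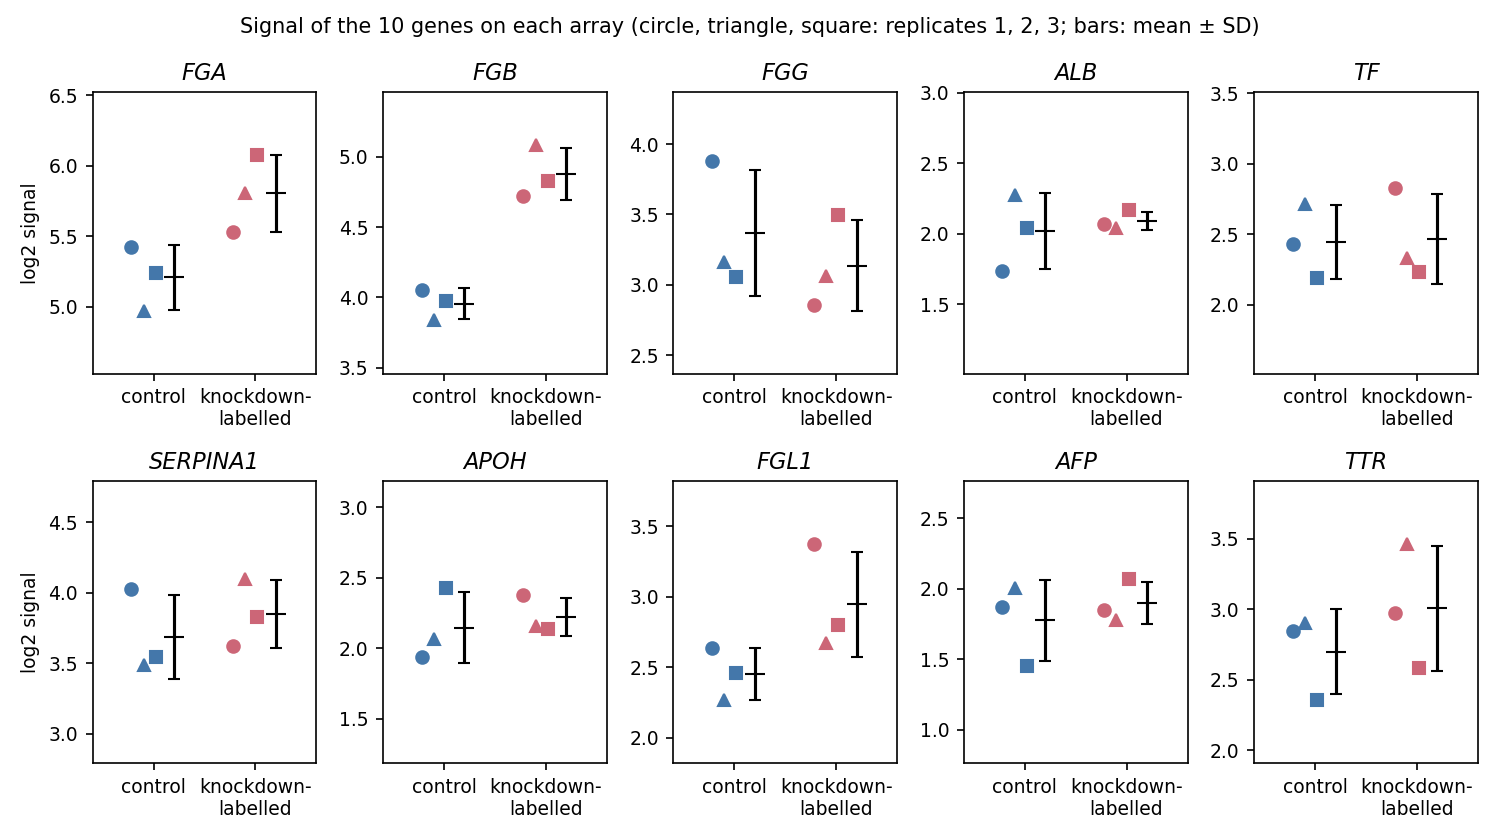
Log2 signal (y axis, spanning the same range of 2 units in every panel) of each of the 10 genes on the 3 control arrays and the 3 knockdown-labelled arrays, with circles, triangles and squares for replicates 1, 2 and 3 and black bars for the mean ± SD. FGB shows the clearest gap between the groups, FGA and FGL1 a narrow one, and the other 7 genes overlap.

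Within each array the signals of FGB and FGG lay further apart in the knockdown-labelled group. FGB minus FGG was 0.17, 0.67 and 0.92 on the log2 scale in the controls and 1.86, 2.02 and 1.33 in the knockdown-labelled arrays, a difference between the group means of 1.15. FGA minus FGG was 1.54, 1.80 and 2.18 in the controls and 2.67, 2.74 and 2.58 in the knockdown-labelled arrays, a difference of 0.83. Neither pair of groups overlapped, and a shift of a whole array cannot alter such a contrast, although a shift with brightness can. FGB minus FGA was −1.37, −1.13 and −1.26 in the controls and −0.81, −0.73 and −1.25 in the knockdown-labelled arrays, so that the groups overlapped and the difference of 0.32 was the smallest of the 3. Over the other settings the difference in FGB minus FGG was 0.94 to 1.35, that of FGA minus FGG 0.62 to 1.09 and that of FGB minus FGA 0.19 to 0.48. Since each chain is read by its own probes, only the shift of these contrasts between arrays has a meaning, not which chain is more abundant.

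The genes on either side of the fibrinogen genes, looked up after the values of the chains had been seen, did not share the higher signal. In RefSeq the order is PLRG1, FGB, FGA, FGG and LRAT. PLRG1, a splicing factor beside FGB, read 4.97, 4.30 and 4.67 in the controls and 4.39, 4.10 and 4.34 in the knockdown-labelled arrays, a difference of −0.37 ± 0.19 (SE; limma adjusted p = 0.448). LRAT, which esterifies retinol and lies beside FGG, had a difference of 0.18 ± 0.168 (SE; limma adjusted p = 0.681). PLRG1 was at −0.21 without control replicate 1, and LRAT at 0.05 without knockdown-labelled replicate 1. The groups overlapped for both genes, and so the non-overlap within this row of 5 genes was that of FGB and FGA.

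**Figure D2:**
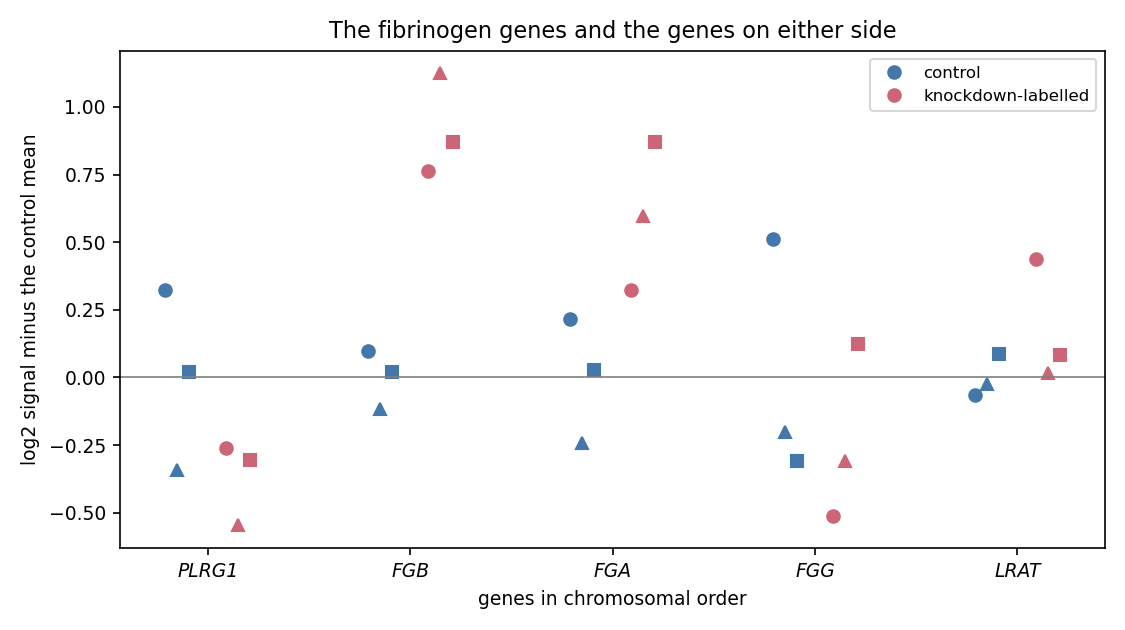
Log2 signal minus the gene's control mean (y axis) on each control array (blue) and knockdown-labelled array (red) for the 3 fibrinogen genes and the genes on either side, in chromosomal order and not to scale, with circles, triangles and squares for replicates 1, 2 and 3. The knockdown-labelled arrays lie above the controls for FGB and FGA and among or below them for PLRG1 and FGG.

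FGL1 encodes a protein with a fibrinogen domain that hepatocytes secrete and that binds the T cell receptor LAG3. Its signal (probe set 8149521, Entrez gene 2267) was 2.64, 2.27 and 2.46 in the controls and 3.37, 2.67 and 2.80 in the knockdown-labelled arrays. The groups were separate by the small step from 2.64 to 2.67, and knockdown-labelled replicate 1 was well above the rest. The means were 2.45 ± 0.18 and 2.95 ± 0.37 (SD, n = 3 each), a difference of 0.49 ± 0.2 (SE), or 1.41-fold. Without knockdown-labelled replicate 1 it was 0.28. The groups overlapped after quantile normalization, cyclic loess or subtraction of array medians, where the difference was 0.37, 0.38 and 0.45.

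The carriers of plasma had differences from 0.02 (TF) to 0.31 (TTR), each with overlapping groups. ALB, the main protein of plasma (probe set 8095628, Entrez gene 213), read 1.74, 2.27 and 2.04 in the controls and 2.07, 2.04 and 2.16 in the knockdown-labelled arrays. AFP, its fetal relative in the neighbouring gene (probe set 8095646, Entrez gene 174), read 1.87, 2.0 and 1.46 against 1.85, 1.78 and 2.07. For both genes the lowest array was a control and the groups overlapped. The differences were 0.08 ± 0.174 for ALB and 0.12 ± 0.182 for AFP (SE), in the dimmest bin, where the median of genes was 0.15. After quantile normalization they turned to −0.10 and −0.06.

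TF, transferrin, carries iron to cells (probe set 8082797, Entrez gene 7018), and read 2.43, 2.71 and 2.19 in the controls and 2.83, 2.33 and 2.23 in the knockdown-labelled arrays. APOH, beta-2-glycoprotein I, binds anionic phospholipids (probe set 8017766, Entrez gene 350), and read 1.94, 2.07 and 2.43 against 2.38, 2.16 and 2.13. In both genes the arrays of the groups were interleaved. Their differences were 0.02 ± 0.199 and 0.08 ± 0.175 (SE), and quantile normalization turned them to −0.12 and −0.10. TTR, which carries thyroxine and the retinol-binding protein (probe set 8020795, Entrez gene 7276), read 2.84, 2.90 and 2.35 in the controls and 2.97, 3.46 and 2.58 in the knockdown-labelled arrays. Knockdown-labelled replicate 2 was the highest and the groups overlapped. The difference was 0.31 ± 0.226 (SE), the fourth in size among the 10. It was 0.08 without knockdown-labelled replicate 2, 0.13 without control replicate 3, 0.52 without knockdown-labelled replicate 3 and 0.62 with array weights.

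SERPINA1, alpha-1-antitrypsin, inhibits neutrophil elastase and is made by liver and by lung epithelium. Its signal (probe set 7981068, Entrez gene 5265) was 4.02, 3.48 and 3.54 in the controls and 3.62, 4.10 and 3.83 in the knockdown-labelled arrays. The groups overlapped, because control replicate 1 was nearly as high as the highest knockdown-labelled array. The difference was 0.16 ± 0.193 (SE), and it ran from 0.04 without knockdown-labelled replicate 2 to 0.34 without control replicate 1. Among the 10 genes only FGA and FGB had a mean signal above the median of all genes, and the other 8 lay below it. ALB, TF, APOH and AFP were in the dimmest of the 5 bins, FGG, FGL1 and TTR in the next and SERPINA1 in the middle one. RMA tends to compress differences at low signal.

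Over the 10 genes, 9 differences were above 0 and 1 was below, where 51.45% of all genes were below 0. The median was 0.14 against −0.01 for all genes. In the dimmest bin, which holds ALB, TF, APOH and AFP, 18.35% of genes were below 0 and the median was 0.15. In the next bin, which holds FGG, FGL1 and TTR, 36.11% were below 0 and the median was 0.07. The median of the 10 was 0.04 after quantile normalization and 0.04 after cyclic loess, and 0.33 with array weights. The groups did not overlap for 3 of the 10, all higher in the knockdown-labelled arrays (FGB, FGA and FGL1), where 7.17% of all genes were higher and 17.0% were apart in either direction. In limma 0 of the 10 passed an adjusted p of 0.05, against 0.0326% of all genes (6), and 3 were under an unadjusted p of 0.05, against 12.2% of all genes. Because the genes were chosen with these differences known, nothing is read from those counts. The spread among the 10 was from −0.23 (FGG) to 0.92 (FGB). Quantile normalization and cyclic loess each put 5 of the 10 below 0 (FGG, ALB, TF, APOH and AFP), and the differences of FGA, FGB, FGL1, SERPINA1 and TTR stayed above 0 in every setting tried.

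**Figure D3:**
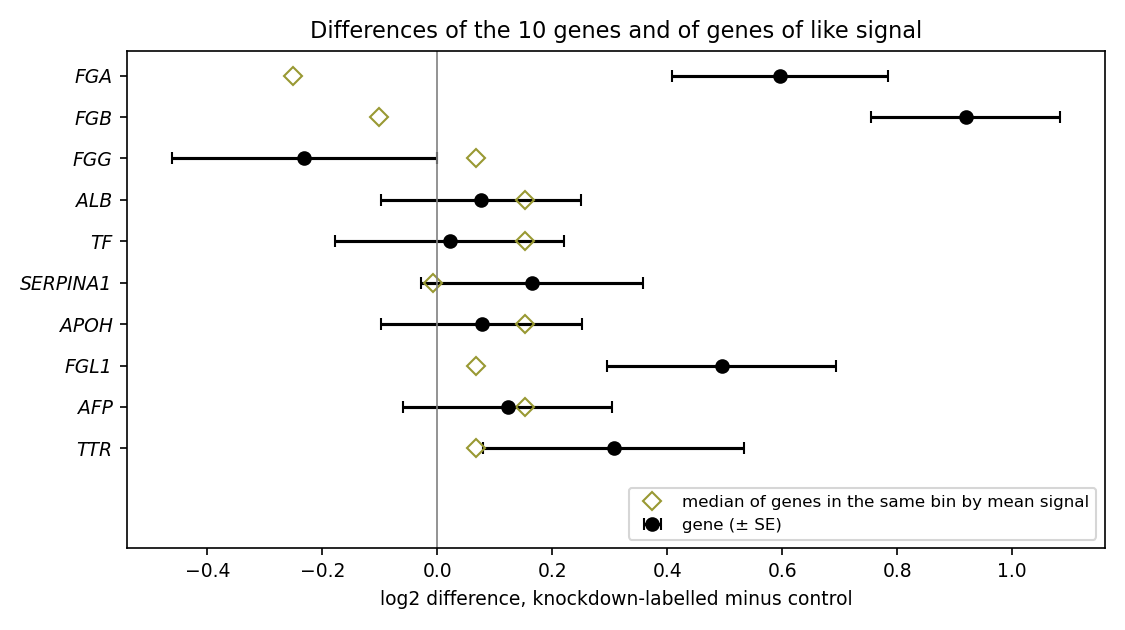
Log2 difference, knockdown-labelled minus control (x axis), of each of the 10 genes with its SE as bars (black), beside the median difference of the genes in the same bin of mean signal (open diamonds). The bars of FGA, FGB, FGL1 and, narrowly, TTR lie to the right of the median of genes of like signal, and that of FGG to the left. For ALB, TF, SERPINA1, APOH and AFP the median falls within the bar.

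**Figure D4:**
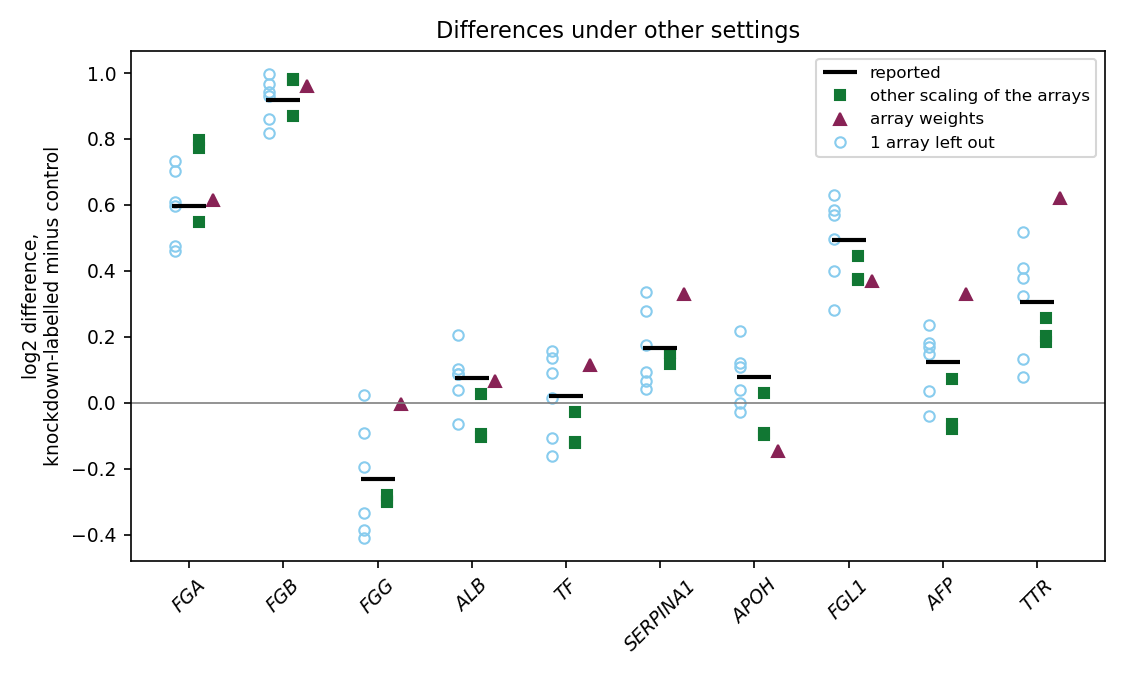
Log2 difference, knockdown-labelled minus control (y axis), of each gene as reported (black line), with 1 array left out (open circles), after another scaling of the arrays (green squares) and with array weights (purple triangles). FGB stays between 0.82 and 1.0 and FGA between 0.46 and 0.80, while ALB, TF, APOH and AFP lie on both sides of 0.

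Other plasma proteins of liver held no gene past the threshold, which 0.0326% of all genes passed. Of 31 measured genes of this list 0 were called in limma, and 8 were below 0, with a median of 0.08. At an unadjusted p under 0.05, 1 was higher and 0 lower, against 12.2% of all genes in either direction. The groups did not overlap for 2 (6.45%, against 17.0% of all genes), both higher, where 7.17% of all genes were higher with no overlap. They were APOB, the protein of low-density lipoprotein (0.19), and SERPINA7, the thyroxine-binding globulin (0.22). The 4 with the largest differences were ORM1, an acute-phase glycoprotein (0.53), CPB2, a carboxypeptidase that slows fibrin lysis (0.37), SERPINF2, the plasmin inhibitor (0.32), and SERPINC1, antithrombin (0.32), with limma adjusted p from 0.41 to 0.548. Without knockdown-labelled replicate 1 the difference of ORM1 was 0.22, that of SERPINF2 0.09 and that of SERPINC1 0.21, and after quantile normalization that of CPB2 was 0.19. In this list 26 of the 31 genes were below the median signal of all genes. Of all genes 51.45% were below 0, but 18.35% in the dimmest bin and 36.11% in the next. ORM1 shares long stretches of sequence with its paralog ORM2, so which of them its signal reads is uncertain.

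Markers of hepatocytes themselves were dim in both groups. Of 13 measured genes, 12 were below the median signal, and the brightest, the asialoglycoprotein receptor ASGR1, had a mean of 3.89. The log2 of their summed signal ran from 6.37 to 6.66 in the controls and from 6.57 to 6.76 in the knockdown-labelled arrays. Their median difference was 0.13 and 11 of the 13 were above 0. In limma 0 were called, against 0.0326% of all genes, and 1 was at an unadjusted p under 0.05, against 12.2%. In the dimmest bin of all genes the median was 0.15 and 18.35% of genes were below 0, in the next 0.07 and 36.11%, and 51.45% of all genes were below 0. For 10 platelet and blood markers the summed signal was 6.73 to 6.88 against 6.68 to 6.86, with a median difference of 0.10, and for 8 fibroblast markers it was 6.42 to 6.76 against 6.66 to 6.94, with a median of 0.29. For the 14 markers of lung epithelium it was 10.60 to 10.97 in the controls and 10.59 to 11.01 in the knockdown-labelled arrays. The part of these marker signals in the values of the 10 genes was not tested.

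Genes of coagulation and of fibrin breakdown lay on both sides of 0. Of 22 measured genes 0 were called in limma, against 0.0326% of all genes, and the median was −0.03. At an unadjusted p under 0.05, 1 was higher and 1 lower, against 12.2% of all genes. The groups did not overlap for 18.2%, 3 higher and 1 lower, against 17.0% of all genes. PLAUR, the receptor of urokinase, read 6.32, 6.13 and 6.04 in the controls and 5.65, 5.66 and 5.64 in the knockdown-labelled arrays, a difference of −0.51 ± 0.156 (SE; limma adjusted p = 0.289). The groups were far apart, with the 3 knockdown-labelled arrays almost equal. PLAU, urokinase, which turns plasminogen into the fibrin-cutting enzyme plasmin, had a difference of −0.44 (limma adjusted p = 0.441) with overlap. F9, clotting factor IX, was at 0.42 with overlap, and THBD, the thrombin receptor thrombomodulin, at 0.34 without. After cyclic loess PLAUR was at −0.28, PLAU at −0.18 and F9 at 0.22, and without knockdown-labelled replicate 1 PLAU was at −0.18.

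Genes that share the fibrinogen domain with the chains had a median of 0.06 over 16 measured. Of these 3 were below 0 and 0 were called in limma, against 0.0326% of all genes. At an unadjusted p under 0.05 there was 1, against 12.2% of all genes. The groups did not overlap for 12.5%, 2 genes, both higher, against 17.0% of all genes. The signal of 11 was below the median of all genes, and in the dimmest bin 18.35% of genes were below 0, against 51.45% of all genes. ANGPTL5, an angiopoietin-like protein, was at 0.45 and TNN, the matrix protein tenascin-N, at 0.28. FIBCD1, a membrane receptor for acetylated groups, was at −0.37, and ANGPTL4, an inhibitor of lipoprotein lipase, at −0.31. The groups overlapped for all of these but TNN, and the limma adjusted p was 0.408 to 0.513. ANGPTL5 was at 0.23 without knockdown-labelled replicate 3, TNN at 0.14 without knockdown-labelled replicate 1, and ANGPTL4 at −0.13 after cyclic loess. FIBCD1 was at −0.20 when control replicate 2 was left out, at −0.23 when knockdown-labelled replicate 3 was, and at −0.18 with array weights.

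Of the transcription factors that set liver genes, 18 were measured, with a median of −0.09 and 0 called in limma, against 0.0326% of all genes. At an unadjusted p under 0.05, 1 was higher and 2 were lower, against 12.2% of all genes. The groups did not overlap for 11.1%, 1 higher and 1 lower, against 17.0% of all genes. FOXA1, a pioneer factor of liver and lung endoderm, read 4.96, 5.13 and 5.10 in the controls and 4.28, 4.96 and 4.55 in the knockdown-labelled arrays. Its groups were separate by the step from 4.965 to 4.964, with a difference of −0.47 ± 0.188 (SE; limma adjusted p = 0.367). ONECUT2, a homeobox factor, was at −0.74 with overlap (limma adjusted p = 0.316). PROX1, a homeobox factor of early liver and lymphatic cells, was at 0.46 without overlap (limma adjusted p = 0.338), and NR0B2, the repressor SHP, at 0.33 with overlap. Without knockdown-labelled replicate 1 FOXA1 was at −0.31, and without knockdown-labelled replicate 3 ONECUT2 was at −0.44. NR0B2 ran from 0.12 without knockdown-labelled replicate 2 to 0.67 without knockdown-labelled replicate 1, and PROX1 was at 0.31 after quantile normalization. With array weights 1 gene of this list was called.

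The interleukin-6, gp130 and glucocorticoid genes act upstream of fibrinogen in liver. Among 20 measured none passed the threshold in limma, against 0.0326% of all genes, and the median was −0.06. At an unadjusted p under 0.05 in limma 0 were higher and 3 lower. The groups did not overlap for 25.0% of the 20, 4 lower and 1 higher, against 17.0% of all genes. The higher one was IL6R, at 0.29 (limma adjusted p = 0.474). Of all genes 12.2% were under that unadjusted p. IL6 itself read 5.65, 5.19 and 5.59 in the controls and 4.44, 4.67 and 4.85 in the knockdown-labelled arrays, a difference of −0.82 ± 0.182 (SE; limma adjusted p = 0.192). All 3 knockdown-labelled arrays were below the lowest control, while those of FGA and FGB were above the highest. OSMR, the oncostatin M receptor (−0.48), and JAK1, a kinase of gp130 (−0.47), were also apart, and IL6ST, which encodes gp130, was at −0.43 with overlap (limma adjusted p from 0.314 to 0.453). These 3 and IL6 are bright genes, in the bin with a median of −0.25. After cyclic loess IL6 was at −0.67, OSMR at −0.22, JAK1 at −0.21 and IL6ST at −0.21. Without control replicate 1 IL6ST was at −0.19. With array weights 1 gene of the list was called.

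Receptors and partners of the secreted proteins had a median of −0.05 over 23 measured. In limma 0 were called, against 0.0326% of all genes. At an unadjusted p under 0.05, 0 were higher and 5 lower, against 12.2% of all genes. Of the 23 genes 26.1% did not overlap, 4 lower and 2 higher, against 17.0% of all genes. The transferrin receptor TFRC read 5.42, 5.02 and 5.20 in the controls and 4.25, 4.59 and 4.96 in the knockdown-labelled arrays, a difference of −0.61 ± 0.198 (SE; limma adjusted p = 0.304). SLC11A2, which moves iron out of endosomes, was at −0.61 (limma adjusted p = 0.349), and ACO1, the iron regulatory protein that binds the transferrin receptor message, at −0.54 (limma adjusted p = 0.289). All 3 had no overlap, against the near 0 difference of TF itself. ITGAV, an integrin subunit that binds fibrinogen, was at −0.47 with overlap (limma adjusted p = 0.379). Without knockdown-labelled replicate 1 SLC11A2 was at −0.32 and ITGAV at −0.30. ACO1 and ITGAV are in the brightest bin, with a median of −0.25, and were at −0.28 and −0.23 after cyclic loess.

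**Figure D5:**
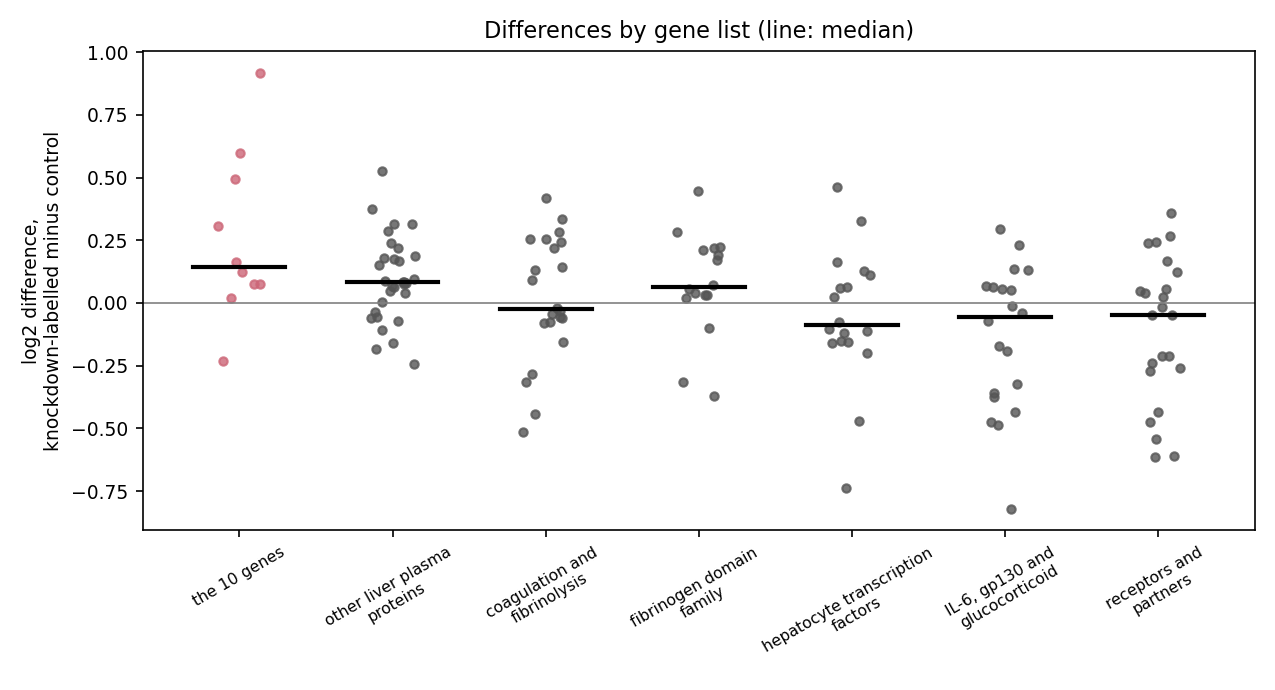
Log2 difference, knockdown-labelled minus control (y axis), of each measured gene (points) in the 10 genes (red) and in 6 lists of related genes (grey), with the median of each as a black line. FGB is the highest point of all, IL6 the lowest, and the medians lie between −0.09 and 0.14.

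Among 9206 genes with a mean signal above the median, the pattern most like the average of the 3 fibrinogen chains over the 6 arrays was that of NTRK3, a neurotrophin receptor, and TM4SF20, a membrane protein (Pearson r = 0.99 for each). ITGB4, an integrin of hemidesmosomes, ERF, an ETS repressor, and HS2ST1, a heparan sulfate sulfotransferase, followed with r = 0.96 and THAP10 with r = 0.95, and 19 genes were above 0.9. The chain average, relative to its own mean, was 0.06, −0.40 and −0.30 in the controls and −0.02, 0.26 and 0.41 in the knockdown-labelled arrays. Replicate 1 of each group was near the middle, and the groups overlapped there. In the average, control replicate 1 was above knockdown-labelled replicate 1, as for FGG (3.88 and 2.86), but for FGB and FGA it was below. NTRK3 had the order of FGG on these arrays (4.07 and 3.94) and THAP10 that of FGB and FGA (4.35 and 4.43). Likeness to the average is therefore not likeness to each chain. The log2 differences of the 6 genes were 0.40, 0.36, 0.38, 0.06, 0.16 and 0.21 in that order, all smaller than that of FGA. The points of each correlation are the same 6 arrays in 2 groups, so r is a description of these arrays.

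The neighbours of the other genes lay on both sides of 0. AFM, the vitamin E carrier beside AFP, was at 0.10, close to ALB and AFP, and RASSF6, the gene after it, at 0.29 with no overlap (limma adjusted p = 0.471). TOPBP1, a replication checkpoint protein near TF, was at −0.55 with no overlap (limma adjusted p = 0.314). Both genes beside TTR (0.31) had no overlap and lower values. The desmosomal cadherin DSG2 was at −0.45 and the galactosyltransferase B4GALT6 at −0.40 (limma adjusted p = 0.41 and 0.399). Both are brighter than TTR, DSG2 in the bin with a median of −0.25 and B4GALT6 in that with −0.10. DSG2 read 4.78, 5.38 and 5.43 in the knockdown-labelled arrays and 5.97, 5.44 and 5.53 in the controls. These 2 genes were not followed through other settings. Of all genes 17.0% had no overlap. After quantile normalization RASSF6 was at 0.15, and with array weights TOPBP1 was at −0.28. SERPINA6, the cortisol carrier beside SERPINA1, was at 0.04. These were looked up after the values of the 10 genes had been seen.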

How the data were processed

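The authors deposited log2 signals of 33297 probe sets on 6 arrays. The submitters' processing notes name RMA, whose version is not given in the sources used here. RMA usually corrects background, normalizes arrays and summarises probes, and tends to shrink differences at low signal. Per the labels' protocols, 6 ug of RNA was turned into biotinylated cRNA. The unit of the drug's dose is cut short in the labels, so no dose is given. Groups were taken from sample titles, and no 2 arrays were identical (0 pairs).

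The platform annotation gave 1 gene to 19460 probe sets, several to 1754 and none to 12083, and 19429 matched RefSeq by Entrez number. Per gene the probe set with the highest mean was kept (18417 genes, 769 with a choice). Of 203 listed genes 19 had no single-gene probe set in that table and were not analysed here. Differences are knockdown-labelled minus control, fitted with limma 3.58.1 in R 4.3.3 (lmFit, eBayes, no covariate, Benjamini-Hochberg adjustment over all genes, threshold 0.05). Figures used matplotlib 3.10.9. Tested on simulated data of 18417 genes for this comparison of 3 against 3 arrays, the fit recovered 65 of 100 genes with a log2 change of 1 and 96 of 100 with one of 2, with 2 false among 163 calls. The simulated noise was drawn independently for each gene and array, without the shared component or the shift with brightness seen in these arrays. Recovery and false calls on the real arrays are therefore not known from it.

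The 10 genes and the lists were chosen with earlier results of these data known. The genes named are the 10, up to 4 per list with the largest absolute difference, the 6 most like the fibrinogen chains, and H2AX. Others were named after their values were seen. Alternatives were quantile normalization, cyclic loess (3 iterations), array medians subtracted, only genes above the median signal, averaged probe sets, the replicate number as a block, an intensity trend with robust variance, weighted arrays, and leaving out each array. Same-numbered arrays of the 2 groups had correlations of deviations of −0.31, −0.03 and 0.07, and differently numbered ones of −0.385 to 0.366. With 3 arrays per group these values cannot settle whether the numbers pair the arrays, and the reported fit used no pairing.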

Additional observations from a re-analysis of the deposited data

How the results depend on the processing

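Of all genes 6 were called in limma as reported. The replicate block, in which the numbers are not known to pair the arrays, gave 3. The filter at the median signal gave 16, quantile normalization 0 and cyclic loess 0 (1495 and 1506 genes at an unadjusted p under 0.05), the mean of all probe sets 3 and array weights 191. With each array left out in turn the count was 0 to 9. The groups did not overlap for 3128 genes, 1726 under the filter and 3993 to 6893 with an array left out. Of the 10 genes 1 was below 0, and 5 after quantile normalization, 5 after cyclic loess, 2 after subtraction of array medians, 2 with array weights and 1 to 3 with an array left out. Their median of 0.14 was 0.04 after quantile normalization and after cyclic loess, 0.33 with array weights and 0.11 to 0.25 with an array left out. The filter kept 2 of the 10, FGA and FGB, with 0 below 0 and a median of 0.76. The groups of 3 of the 10 did not overlap, 1 (FGB) after subtraction of array medians and 3 to 4 with an array left out. The cause of these changes was not tested. The filter tests fewer genes and also refits the variance from the bright genes alone. Groups that are apart on a probe set stay apart when an array is left out, so the leave-out counts are no check of non-overlap. The ranks of FGA and FGB, the contrasts between chains and some of the other named genes were followed through the same settings after seeing the data. DSG2 and B4GALT6 were not among them. FGA was number 117 from the highest difference, and 28 to 846 over the settings. The deposited values do not show background, so how far the 8 genes under the median signal were above it is unknown.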
